A study of Mus musculus with 4 samples.

Results

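The 10 genes of MHC class II presentation that the deposited table lists were compared between gonadal white adipose tissue (gWAT) of floxed control mice (fl/fl, Dnmt1 fl/fl) and of adipocyte-specific Dnmt1 knockout mice (AD1KO). The genes were taken by symbol: H2-Aa, H2-Ab1 and H2-Eb1 encode the classical chains, H2-DMa, H2-DMb1 and H2-DMb2 the peptide exchange factor H2-M, H2-Oa and H2-Ob its inhibitor H2-O, Cd74 the invariant chain, and Ciita the transcriptional coactivator of the set. All 10 were among the 17335 genes of the table, and all 10 passed the minimum of 0.1 FPKM in 1 of the libraries that 15839 genes passed. FPKM, the deposited unit, counts sequenced fragments per kilobase of transcript and per library size, so that levels of different genes can be set side by side.

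Both groups were female littermates that carried the floxed Dnmt1 alleles and were fed a high-fat diet for 18 weeks. AD1KO mice also carried Cre under the adiponectin promoter, which directs recombination to adipocytes and not to the leukocytes, vessels and other cells of the fat pad. The RNA of 4 animals was pooled in each group, so there was 1 library per genotype and no replicate check, and no p-value is given. The reduced representation bisulfite libraries of low-fat and high-fat fed mice in the same series were not analysed here.

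MHC class II molecules are pairs of an alpha and a beta chain that carry peptides of internalised proteins to CD4 T cells. The invariant chain holds the groove of a new pair closed on its way to the endosome, proteases cut the chain down, H2-M exchanges the last fragment for a peptide, and H2-O restrains H2-M, mainly in B cells, the thymus and some dendritic cells. CIITA does not bind DNA itself: it is recruited to class II promoters by the RFX, NF-Y and CREB factors seated on the S, X and Y boxes, and interferon gamma induces it, in part through IRF1. In obese adipose tissue macrophages, dendritic cells and B cells carry class II, and adipocytes have been described to express it as well.

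Promoter stretches of members were read to show the boxes on which these genes are jointly controlled. The RefSeq promoter table (build GRCm38.p6, 250 bases before and 50 after each gene start) held 7 of the 10 members, and H2-Ab1, Cd74 and Ciita had no entry. Capitals mark the letters of the Y box core, ATTGG, with a preceding CTG where present, and of ACNNATG, the part of the X box searched, where it stood 8 to 30 bases ahead of the Y core:
H2-Eb1: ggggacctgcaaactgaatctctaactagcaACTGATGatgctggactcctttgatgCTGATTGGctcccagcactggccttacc
H2-DMb1: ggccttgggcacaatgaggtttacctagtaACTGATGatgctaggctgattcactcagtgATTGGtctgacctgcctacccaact
H2-DMb2: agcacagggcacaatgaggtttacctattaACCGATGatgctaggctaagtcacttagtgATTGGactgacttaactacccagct
H2-Ob: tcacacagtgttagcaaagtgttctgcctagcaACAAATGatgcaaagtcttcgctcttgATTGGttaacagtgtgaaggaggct
H2-Aa: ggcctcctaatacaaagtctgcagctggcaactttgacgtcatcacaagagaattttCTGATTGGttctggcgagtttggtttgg
H2-Oa: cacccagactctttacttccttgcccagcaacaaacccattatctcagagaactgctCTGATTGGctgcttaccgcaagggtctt

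Each stretch is 85 bases long and is written on the strand of its gene. In GRCm38.p6 they lie at chr17:34305748-34305832 (H2-Eb1, plus strand), chr17:34153070-34153154 (H2-DMb1, plus), chr17:34145099-34145183 (H2-DMb2, plus), chr17:34238788-34238872 (H2-Ob, plus), chr17:34287847-34287931 (H2-Aa, minus) and chr17:34092276-34092360 (H2-Oa, plus). The X letters ended 22 bases ahead of the Y core in H2-Eb1, 23 bases in H2-DMb1 and in H2-DMb2, and 20 bases in H2-Ob. This pair of motifs, searched on both strands, was in 4 of the 8 windows of members and in 227 of all 32851 windows of the table (0.691%). The Y core alone was in 7 of 8 member windows and in 37.4% of all windows, and its longer form CTGATTGG was in 3 of 8 member windows and in 4.10% of all. H2-DMa has 2 of these windows, one with no Y core and one with a core that starts 198 bases ahead of the gene start, and no stretch of it is printed. The longer form contains the core and overlaps it. H2-Aa and H2-Oa held the longer form with no ACNNATG at the searched distance, which says only that those letters are not in that place. The motifs were chosen after these sequences had been read and the matches are a description of letters.

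The classical chains and the invariant chain were among the most abundant mRNAs of the control fat, and each stood at 31.7% to 34.9% of that level in AD1KO. Cd74 was at 4662 FPKM in fl/fl and 1627 FPKM in AD1KO, and its rank among all genes of the table went from 7 to 31. H2-Aa, the alpha chain of I-A, was at 3087 FPKM in fl/fl and 978.5 FPKM in AD1KO, ranks 16 and 59. H2-Ab1, the beta chain of I-A, was at 1985 and 634.6 FPKM, ranks 29 and 124. In every one of these genes the fl/fl library was the higher one by a factor near 3, and the order of levels, Cd74 above H2-Aa above H2-Ab1, was that of both libraries. H2-Eb1, the beta chain of I-E, was at 1112 FPKM in fl/fl and 364.0 FPKM in AD1KO, ranks 71 and 259.

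The differences are given as log2 ratios of FPKM plus 0.01, AD1KO over fl/fl, with a 95% exact interval from reads estimated from FPKM and transcript length. The interval covers counting error only, and holds nothing of the spread between animals. The log2 ratio was -1.66 for H2-Aa (interval -1.68 to -1.63), -1.65 for H2-Ab1 (-1.67 to -1.61) and -1.61 for H2-Eb1 (-1.64 to -1.58). The intervals of H2-Aa and H2-Ab1 overlapped, as did those of H2-Ab1 and H2-Eb1, so the chains of I-A were not told apart at this depth. The log2 ratio of Cd74 was -1.52 (-1.54 to -1.50), and its interval did not reach those of the classical chains. Between 3.57% and 4.17% of the compared genes had a lower log2 ratio than these 4 genes.

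**Figure D1:**
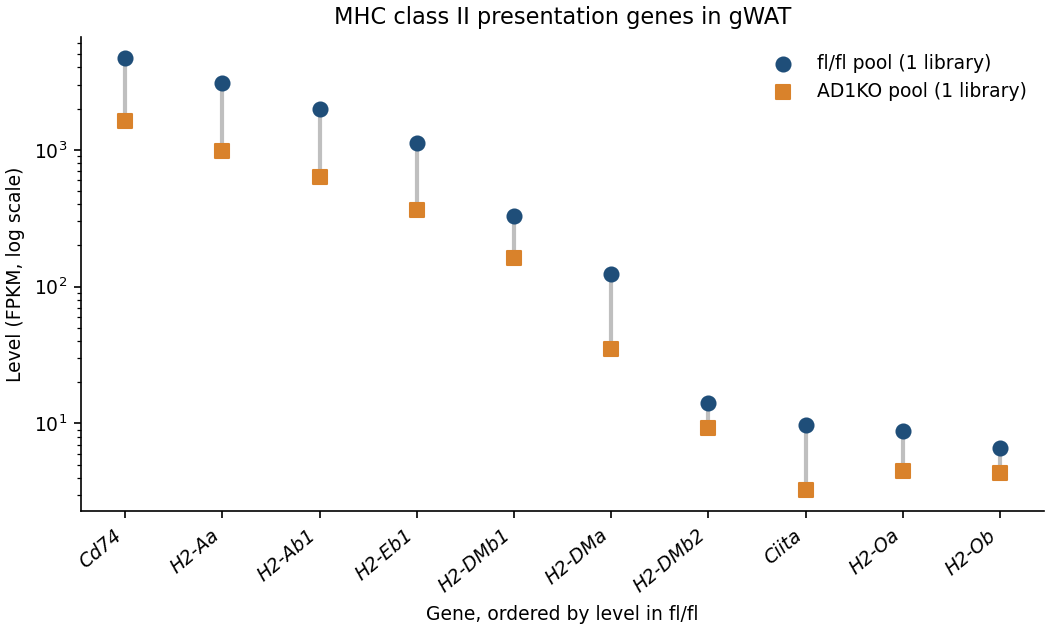
Level of each of the 10 members in FPKM (log axis) in the fl/fl pool (circles) and the AD1KO pool (squares), 1 library each, with a grey line joining the values of a gene. The AD1KO value is the lower one in all 10, and the levels run from 4662 FPKM for Cd74 to 6.67 FPKM for H2-Ob in fl/fl.

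The proportions of the chains within a library differed little between the genotypes. H2-Aa stood at 1.56 times the level of its partner H2-Ab1 in fl/fl and at 1.54 times in AD1KO, a log2 change of -0.01 (counting interval -0.05 to 0.03). The level of H2-Eb1 relative to H2-Ab1 was 0.560 and 0.574, a log2 change of 0.03 (-0.01 to 0.08). Neither change was larger than counting error. Cd74 relative to H2-Aa went from 1.51 to 1.66, a log2 change of 0.14 (0.11 to 0.17), so that the invariant chain was lower in AD1KO by a little less than the chain it accompanies.

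The genes of peptide exchange differed among themselves. H2-DMa, the alpha chain of H2-M, was at 124.4 FPKM in fl/fl and 35.0 FPKM in AD1KO, a log2 ratio of -1.83 (-1.93 to -1.72), the lowest of the 10. H2-DMb1, a beta chain of H2-M, stood at 327.1 and 162.7 FPKM, a log2 ratio of -1.01 (-1.07 to -0.95). The alpha chain was thus at 28.2% of its control level and the more abundant beta chain at 49.7%, and the level of H2-DMa relative to H2-DMb1 went from 0.380 to 0.215, a log2 change of -0.82 (-0.94 to -0.70). H2-DMb2, the second beta chain gene, was at 14.1 FPKM in fl/fl and 9.24 FPKM in AD1KO, a log2 ratio of -0.61 (-0.97 to -0.24).

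The mRNAs of H2-DMb1 and H2-DMb2 are close copies. Of the 1348 different 50-base words in the annotated H2-DMb1 coding transcripts, 365 also occur in H2-DMb2 (27.1%), and no other member shared such a word with another gene. How reads that match both were counted is not given in the sources used here, and the split between the pair is therefore uncertain. Summed, they were at 341.2 FPKM in fl/fl and 171.9 FPKM in AD1KO, a log2 ratio of -0.99, and H2-DMa relative to this sum went from 0.365 to 0.204, a log2 change of -0.84 (-0.96 to -0.72).

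The chains of the inhibitor H2-O were the least abundant members in the fl/fl library. H2-Oa was at 8.83 FPKM in fl/fl (148 estimated reads) and 4.46 FPKM in AD1KO (74 reads), a log2 ratio of -0.98 (-1.41 to -0.57). H2-Ob was at 6.67 FPKM (355 reads) and 4.31 FPKM (227 reads), a log2 ratio of -0.63 (-0.87 to -0.38). The fl/fl library was higher for both chains, and their intervals overlapped each other but not those of H2-DMa or the classical chains. H2-Oa relative to H2-DMa, an inhibitor chain over the alpha chain of H2-M, went from 0.0710 to 0.127, a log2 change of 0.84 (0.43 to 1.26). The beta chain gene H2-DMb1 had a log2 ratio of -1.01, close to the -0.98 of H2-Oa. For H2-Oa the change is therefore one against the alpha chain and not against that beta chain. By summed reads, H2-Oa and H2-Ob together had a log2 ratio of -0.72 (-0.93 to -0.51). The H2-M genes H2-DMa, H2-DMb1 and H2-DMb2 together had one of -1.22 (-1.27 to -1.17), and these intervals did not overlap.

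Ciita, the coactivator, was a low transcript with a large difference. It was at 9.80 FPKM in fl/fl (1012 reads) and 3.28 FPKM in AD1KO (335 reads), a log2 ratio of -1.58 (-1.76 to -1.40). Its interval held the log2 ratios of H2-Aa, H2-Ab1, H2-Eb1 and Cd74, and the level of H2-Aa was 315.0 times that of Ciita in fl/fl and 298.3 times in AD1KO, a log2 change of -0.08 (-0.26 to 0.10) that is within counting error.

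**Figure D2:**
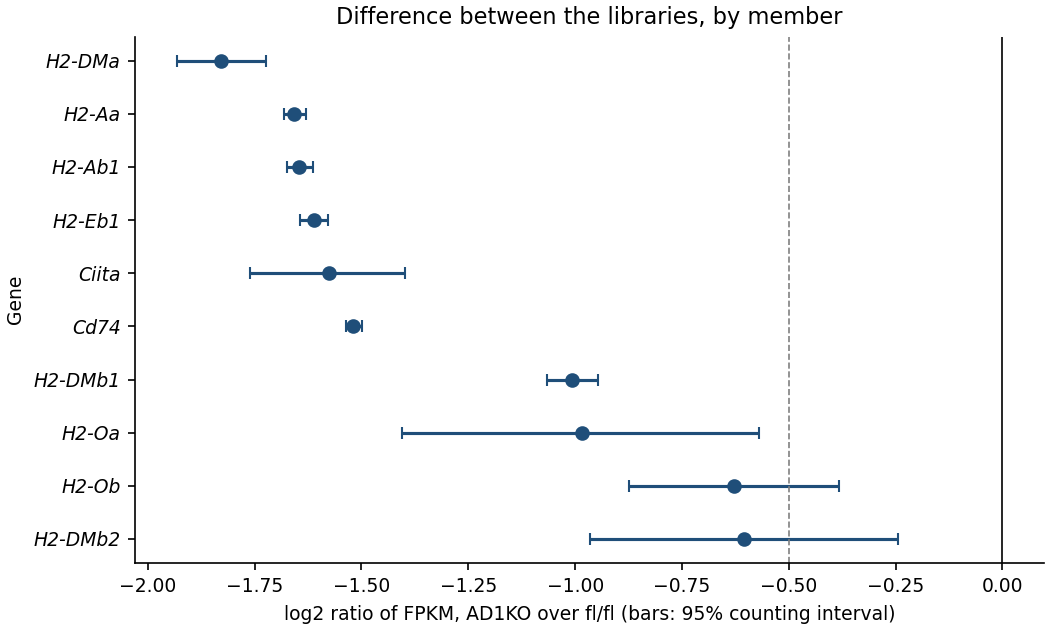
Log2 ratio of FPKM, AD1KO over fl/fl, for each member, with the 95% counting interval as a bar and the threshold of -0.5 as a dashed line. H2-DMa, the classical chains, Ciita and Cd74 lie between -1.83 and -1.52, H2-DMb1 and H2-Oa near -1, and the intervals of H2-DMb2 and H2-Ob cross -0.5.

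By the study's threshold of 0.5 on the log2 scale, 10 of 10 members were lower in AD1KO, against 19.1% of all compared genes, and 0 of 10 were higher, against 14.3%. At a log2 ratio of -1 or less there were 7 of 10 members, against 8.95% of compared genes. The members with a whole counting interval below -0.5 numbered 8 of 10, against 8.26%, and the other two were H2-DMb2 and H2-Ob. The median log2 ratio of the members was -1.55, and that of all compared genes was -0.04. Summed over the members the level was 11338 FPKM in fl/fl and 3823 FPKM in AD1KO, a log2 ratio of -1.57, and the members took an estimated 1.28% of the reads of all genes in fl/fl and 0.435% in AD1KO.

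Dnmt1, the gene targeted in adipocytes, was at 6.99 FPKM in fl/fl and 3.33 FPKM in AD1KO, a log2 ratio of -1.07 (-1.27 to -0.87). The estimated total was 17793484 reads in fl/fl and 17556567 reads in AD1KO, so that depth differed little between the libraries.

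In the class II region of chromosome 17 the members were interleaved with class I genes that were also lower. On mm9 (GENCODE vM1 annotation) the 8 members on this chromosome run over 223.9 kb in the order H2-Oa (chr17:34229285-34232179), H2-DMa (chr17:34272127-34276046), H2-DMb2 (chr17:34280252-34288498), H2-DMb1 (chr17:34290017-34297168), H2-Ob (chr17:34375848-34390850), H2-Ab1 (chr17:34400154-34406363), H2-Aa (chr17:34406276-34424772) and H2-Eb1 (chr17:34442828-34453144). All were annotated as protein coding, H2-Aa on the minus strand and the others on the plus strand, and Ciita (chromosome 16) and Cd74 (chromosome 18) lie elsewhere. H2-Ab1 and H2-Aa meet with their 3′ ends on opposite strands and share 17 exon bases, about 1% of either gene, which an unstranded count could assign to either one.

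Between the members stood 5 other genes that the table lists, and 4 of them were lower by the threshold. Psmb9, a subunit of the immunoproteasome, was at 148.3 FPKM in fl/fl and 42.6 FPKM in AD1KO, a log2 ratio of -1.80, and Psmb8, another subunit, at 164.1 and 51.1 FPKM, a log2 ratio of -1.68. The peptide transporter genes had log2 ratios of -1.77 (Tap1) and -1.04 (Tap2). Brd2, a widely expressed bromodomain protein gene, stood at 34.6 and 28.1 FPKM, a log2 ratio of -0.30. Differences of the size seen for the classical chains were thus also found at H2-DMa and in the middle of the region, with H2-Ob, at -0.63, between Tap2 and H2-Ab1. H2-Eb2, a class II gene beyond H2-Eb1, was barely detected, at 1.00 FPKM in fl/fl and 0.450 FPKM in AD1KO, a log2 ratio of -1.13 (-1.87 to -0.45).

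**Figure D3:**
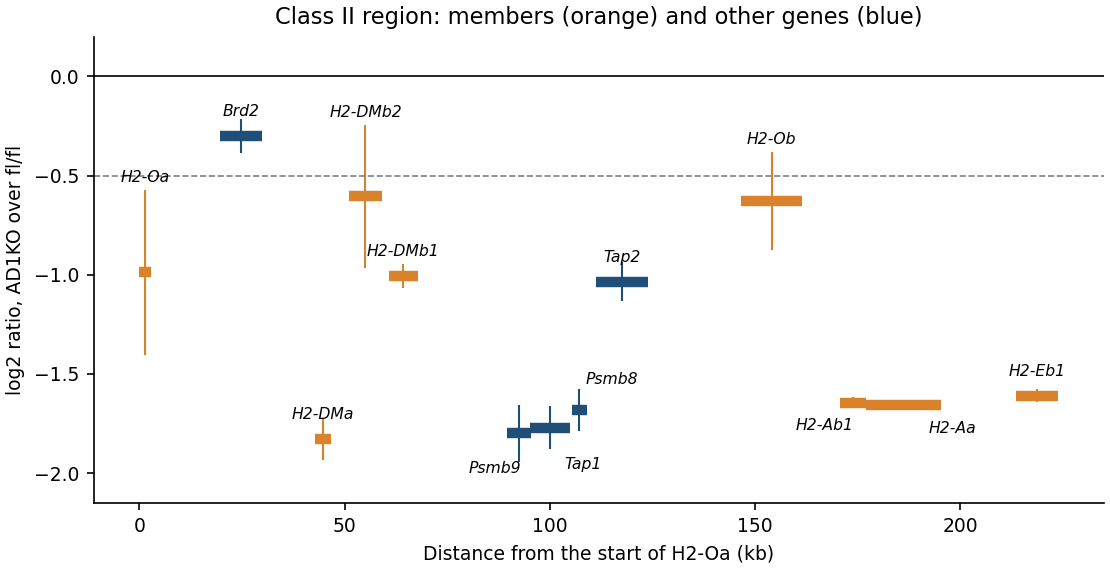
Log2 ratio, AD1KO over fl/fl, of the 13 genes of the class II region against distance in kb from the start of H2-Oa. Each thick bar is a gene drawn to scale, each thin bar its 95% counting interval, and orange marks members. Members and other genes alike reach below -1.5, and Brd2, at -0.30, is the gene nearest to 0.

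The factors that seat CIITA on class II promoters were nearer to their control levels than Ciita and the classical chains. Rfx5, the DNA-binding chain of the RFX complex, was at 3.34 FPKM in fl/fl and 2.69 FPKM in AD1KO, a log2 ratio of -0.31 (-0.59 to -0.04). Of the 7 factors (Rfx5, Rfxank, Rfxap, Nfya, Nfyb, Nfyc and Creb1) 1 was lower by the threshold and 0 higher, and the median log2 ratio was -0.20. The one past it was Nfya, the DNA-contacting chain of NF-Y, at 13.3 and 8.56 FPKM, a log2 ratio of -0.64 (-0.80 to -0.48). Nfyc, at -0.16, and Rfxap, at -0.15, had intervals that reached above 0, and that of Creb1, at -0.29 (-0.47 to -0.11), did not.

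Upstream of Ciita, the induced factors differed and the receptors and kinases did so less. Of 7 genes of the interferon gamma axis 3 (Ifng, Irf1 and Irf8) were lower by the threshold and 0 higher, with a median log2 ratio of -0.49. Irf1, an interferon-induced factor that acts on the inducible Ciita promoter, was at 74.7 FPKM in fl/fl and 20.1 FPKM in AD1KO, a log2 ratio of -1.90 (-2.02 to -1.78). It was lower by more than Ciita, and its interval did not overlap that of Ciita. Ifng itself, made by T and NK cells, was at 2.12 FPKM (41 reads) in fl/fl and 0.210 FPKM (4 reads) in AD1KO, a log2 ratio of -3.28 whose interval, -5.28 to -1.87, is wide because of the few reads. The receptor chains were at 80.7 and 74.5 FPKM for Ifngr1, a log2 ratio of -0.12, and at 54.7 and 41.1 FPKM for Ifngr2, a log2 ratio of -0.41.

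Among 8 enzymes that process the invariant chain or antigens, mostly proteases, 5 were lower and 0 higher by the threshold, with a median log2 ratio of -0.74. Ctss, cathepsin S, which makes the late cuts in the invariant chain of antigen-presenting cells, was at 1129 FPKM in fl/fl and 388.7 FPKM in AD1KO, a log2 ratio of -1.54 (-1.57 to -1.50). That value lies close to the -1.52 of its substrate Cd74. Ifi30, a thiol reductase induced by interferon gamma, stood at 357.0 and 144.8 FPKM, a log2 ratio of -1.30 (-1.37 to -1.23). The broadly expressed cathepsins stood nearer to the control, with log2 ratios of -0.30 for Ctsd (2360 and 1917 FPKM) and -0.41 for Ctsb (1163 and 876.7 FPKM).

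Of 3 regulators of class II at the cell surface, 2 were lower by the threshold. Cd83, which stabilises class II, was at 42.6 FPKM in fl/fl and 14.2 FPKM in AD1KO, a log2 ratio of -1.59. March1, a ubiquitin ligase that removes class II from the surface, stood at 5.97 and 2.92 FPKM, a log2 ratio of -1.03. March8, a related ligase of wider expression, had a log2 ratio of -0.17, and the stabiliser and the ligase March1 were thus lower together.

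The partners of class II in the T cell contact were lower as well. Of 6 compared costimulation genes 5 were lower and 0 higher, with a median log2 ratio of -1.30, among them Cd40 (10.6 and 2.81 FPKM, log2 ratio -1.90), Cd86 (9.71 and 3.65 FPKM, -1.41) and Cd274, the inhibitory ligand PD-L1 (13.5 and 7.11 FPKM, -0.93). Tnfsf4 was under the minimum in both libraries. On the T cell side 10 of 10 genes were lower, with a median of -1.69, and 8 of 10 had a whole counting interval below -0.5. The other two were Cd40lg, with 12 and 8 estimated reads and an interval of -2.06 to 0.84, and Cd28, with an interval of -1.29 to -0.27. With a pseudocount of 1 FPKM 8 of 10 were lower and the median was -1.22, and the costimulation median was -0.80. Cd4, the coreceptor that binds class II, was at 5.06 FPKM in fl/fl and 1.78 FPKM in AD1KO, a log2 ratio of -1.50 (-1.86 to -1.15). The T cell receptor chains Cd3g and Cd3d had log2 ratios of -1.85 and -1.80, and Lag3, an inhibitory receptor for class II, -1.04.

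MHC class I presentation, which is expressed in nearly all nucleated cells, was lower too, with the size depending on the gene. Of 11 compared class I genes 9 were lower and 0 higher, with a median log2 ratio of -1.04. The heavy chains were at 1441 FPKM in fl/fl and 889.8 FPKM in AD1KO for H2-K1, a log2 ratio of -0.70, and at 2124 and 1336 FPKM for H2-D1, a log2 ratio of -0.67. B2m, the light chain, stood at 7393 and 5948 FPKM, a log2 ratio of -0.31. The intervals of these 3 genes, of which the lowest bound was -0.72, did not reach those of the classical class II chains, while Psmb8, Psmb9 and Tap1 were at class II values. H2-K1 and H2-D1 are near copies of each other and of other class I genes, and their split is uncertain.

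**Figure D4:**
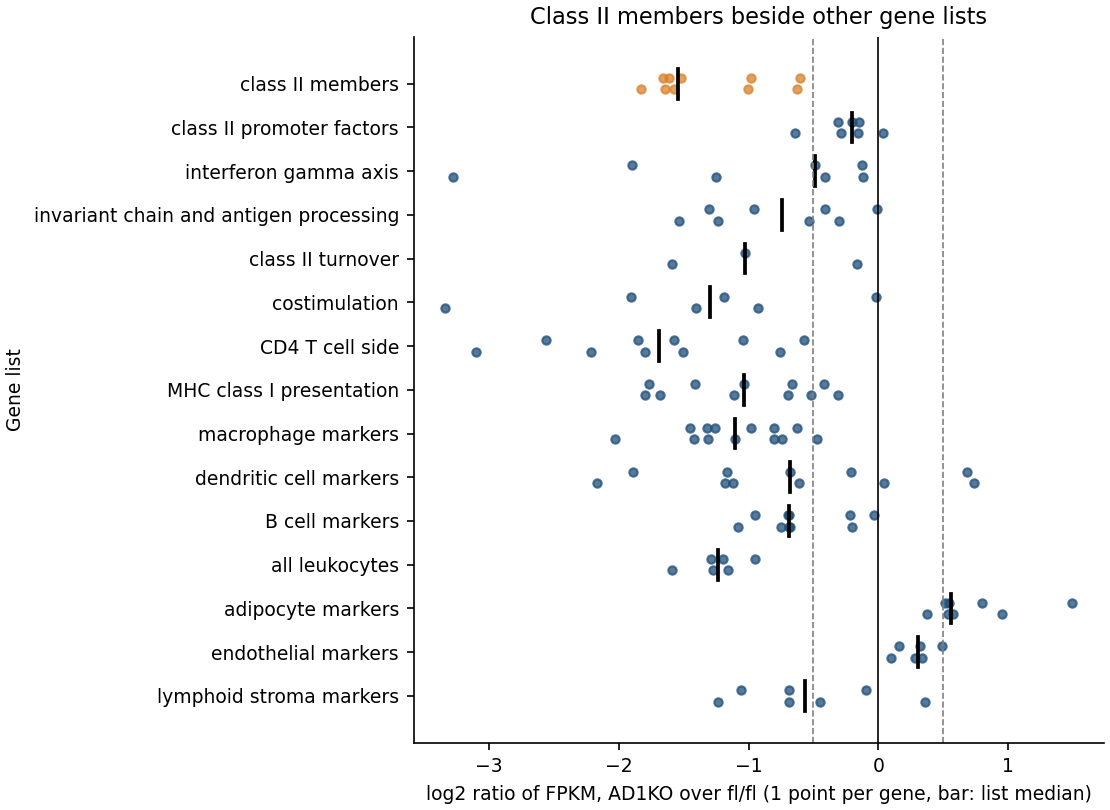
Log2 ratio, AD1KO over fl/fl, of each compared gene (points) by gene list, with the list median as a black bar and the thresholds of -0.5 and 0.5 dashed. Ccl21a, at 8.07, is left out of the points of its list. The class II median of -1.55 lies below that of macrophage (-1.11), B cell (-0.69) and general leukocyte (-1.24) markers. It lies above that of the CD4 T cell side (-1.69), an order that turns with a pseudocount of 1 FPKM (-1.43 and -1.22).

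Macrophage and general leukocyte markers were lower in AD1KO together with the members, and B cell markers by less. Most dendritic cell markers were lower, over a wide range. In a tissue library fewer cells of a type and less RNA per cell cannot be told apart, and the part of cell composition in the differences above was not tested. Of 13 macrophage markers 12 were lower and 0 higher (7 at a log2 ratio of -1 or less), with a range of -2.03 to -0.48, a median of -1.11 and a summed level of 7214 FPKM in fl/fl and 3140 FPKM in AD1KO. Lyz2, lysozyme, was at 2341 and 1187 FPKM (log2 ratio -0.98), and the complement genes C1qb and C1qc had log2 ratios of -1.45 and -1.31. All 6 general leukocyte markers were lower, from -1.59 to -0.95, with Cd52 at -1.59, Laptm5 at -1.16 and Arhgdib at -0.95, and their sum was at 1625 and 639.9 FPKM.

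B cell markers were lower by less than the classical chains. Of 10 markers 7 were lower and 0 higher, 3 had a whole counting interval below -0.5 and 1 was at -1 or less. The range was -1.08 to -0.03 with a median of -0.69, and the sum was at 195.6 FPKM in fl/fl and 111.6 FPKM in AD1KO. Cd79a and Cd79b, the signal chains of the B cell receptor, had log2 ratios of -0.70 and -0.68, and Cd37, a tetraspanin shared with other leukocytes, -1.08. Only the log2 ratios of H2-Ob and H2-DMb2, among the members, lay above the B cell median. Of 11 dendritic cell markers 7 were lower and 2 higher, with a median of -0.68, a range of -2.17 to 0.74 and sums of 289.6 and 167.8 FPKM. With the whole counting interval past the threshold 6 were lower and 0 higher. The 2 higher ones had few reads: Cd209a at 0.68 (54 and 86 reads, interval 0.18 to 1.21) and Itgae at 0.74 (19 and 32 reads, -0.09 to 1.67). The lowest were Clec9a at -2.17 (485 and 106 reads) and Xcr1 at -1.89 (144 and 38 reads). The most abundant markers, Sirpa, Clec10a and Fscn1, had log2 ratios of -1.17, -0.61 and -0.21. No marker of these lists was listed at 0 in AD1KO.

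Adipocyte and endothelial markers differed in the other direction or little. Of 8 adipocyte markers 7 were higher and 0 lower in AD1KO, from 0.37 to 1.50 with a median of 0.56, and their sum was at 16425 FPKM in fl/fl and 25558 FPKM in AD1KO. Fabp4, the fatty acid binding protein, was at 11151 and 15920 FPKM (log2 ratio 0.51), and Adipoq and Cidec had log2 ratios of 0.80 and 0.96. The 6 endothelial markers were between 0.10 and 0.49 with sums of 73.2 and 85.7 FPKM, among them Pecam1 at 0.10, Cdh5 at 0.29 and Emcn at 0.32, and 0 passed the threshold. Among 8 lymphoid stroma genes 4 were lower and 1 higher, with sums of 74.2 and 83.3 FPKM. Ltb, lymphotoxin beta, had a log2 ratio of -1.06 and Cxcl13, a B cell attractant, -0.09. The higher one was Ccl21a, at 0.130 and 37.7 FPKM, a gene with near-identical copies whose value is uncertain. The higher sum of this list in AD1KO rests on Ccl21a, and the list median was -0.57.

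Over both libraries, the 5 genes of at least 50 FPKM in fl/fl whose log2 ratio was nearest the classical chains' median of -1.65 were named by rule from 1653 candidates. They were Samhd1 (80.5 FPKM in fl/fl, 25.8 FPKM in AD1KO, log2 ratio -1.64), Glipr1 (71.5 and 22.9 FPKM, -1.64), Cma1 (76.6 and 24.9 FPKM, -1.62), Psmb8 (-1.68) and Lst1 (108.9 and 33.8 FPKM, -1.69). Samhd1 encodes a nucleotide hydrolase, Cma1 a mast cell chymase and Lst1 a leukocyte transcript of the MHC region. Likeness here is that of a single ratio between 2 libraries.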

How the data were processed

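RNA of gWAT was sequenced on the BGISEQ-500 after selection of polyadenylated RNA. Per the study's methods clean reads were aligned to mm9. The aligner and the program that quantified expression are not given in the sources used here, nor whether the protocol kept strand. The submitters' processing notes list mm9 and mm10 for the series.

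The authors deposited FPKM per gene, with 0 written as 0.01, which was set back to 0. The same table holds the authors' own comparison, a log2 fold change, a p-value and an FDR score that the authors deposited beside it, and no value of these was used. The length of each transcript was used as the authors deposited it.

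The comparison, over genes that reached 0.1 FPKM in 1 library, used the log2 ratio of FPKM plus 0.01, at the study's threshold of 0.5. With 1 pooled library per group no test was made. Reads were estimated by finding the depth and the length correction at which low values of short genes (300 to 1200 bases, under 12 reads) are whole. The fit used 473 genes in fl/fl and 477 in AD1KO, of which 77.4% and 75.7% came within 0.1 read of a whole number, and gave a depth of 17660000 and 17445000 reads and corrections of 117 and 116 bases. Exact Clopper-Pearson intervals (95%) on these reads, and normal intervals on log reads for a change in the ratio of 2 genes, cover counting error only. The procedure was run on simulated data drawn with the same length formula and near the fitted depths. Such data cannot show that the authors computed FPKM in this way.

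Members and gene lists were chosen with earlier results of these data known. Named genes are all members, the 3 most abundant genes of each other list and every gene of a list of 4 or fewer, with Rfx5, Irf1, Ifng, Ctss, Ifi30, Cd4 and Dnmt1, and the 5 genes nearest the classical chains. One gene of the interferon gamma list is not reported here and was left out of its counts. The genes of the region and the pairs whose ratios are given were named after values were seen. So were Irf8, Creb1, Cd28, Cd40lg, Cd209a, Itgae, Clec9a, Xcr1, Fcgr1 and Ccl21a. Alternatives were pseudocounts, scalings, filters, thresholds and summed gene pairs. The tools were SciPy 1.17.1, Matplotlib 3.10.9, NumPy 2.4.6 and pandas 2.3.3, run under Python 3.11.15.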

Additional observations from a re-analysis of the deposited data

How the results depend on the processing

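The count of 10 members lower and 0 higher held under pseudocounts of 0.1 and 1 FPKM, under 3 other scalings and with no filter or one of 1 FPKM. It was 9 of 9 with H2-DMb1 and H2-DMb2 summed. All 71 member log2 ratios recomputed under an alternative were below 0, of which 57 stayed within the counting interval of the value given and 0 changed sign. The 71 include the values under the filter settings, which equal the main values by construction. Every member was above 1 FPKM in both libraries, so the filters could not change the member count either. Of 240 values of the other gene lists, medians and counts of genes lower, 18 moved by more than the counting interval (medians) or 1.5 times (counts). A count cannot be negative, so only the medians could change sign, and 0 did. With a pseudocount of 1 FPKM the median was -0.80 for costimulation and -1.22 for the CD4 T cell side. At a log2 ratio of -1 or less there were 7 macrophage markers, 1 B cell marker, 3 processing enzymes, 2 lymphoid stroma genes and 0 promoter factors, and with the whole counting interval below -0.5 there were 3 B cell markers, 2 lymphoid stroma genes and 0 promoter factors. H2-Eb2 did not pass by its whole interval, nor with a pseudocount of 1 FPKM. The median log2 ratio of the members was -1.43 with a pseudocount of 1 FPKM, which lowers the weight of the low transcripts by construction. The log2 ratio of the summed level was -1.60 without Cd74 and -1.48 without the 3 classical chains. Scaling shifted every log2 ratio by 0.04 to 0.09, and upper quartile scaling, the largest shift, put the share of all compared genes at 16.3% lower and 17.7% higher, with H2-DMb2 at -0.52 and H2-Ob at -0.54. With 1 pool per genotype nothing here measures the spread between animals. No paired analysis was possible because each group is 1 pooled library.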

Other observations

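Levels of class II genes were also set against leukocyte markers within each library, for pairs chosen after their values were seen. H2-Aa stood at 4.40 times the level of Cd68, a macrophage lysosomal glycoprotein, in fl/fl and at 3.0 times in AD1KO, a log2 change of -0.55 (counting interval -0.60 to -0.50). Relative to Adgre1, the macrophage surface marker F4/80, it went from 23.8 to 18.0, a log2 change of -0.40 (-0.47 to -0.33). Relative to Ptprc, the leukocyte antigen CD45, it went from 113.0 to 86.7, a log2 change of -0.38 (-0.49 to -0.27). Over the whole macrophage list the chain was lower in AD1KO by more than the marker, beyond counting error, for 12 of 13 markers, with log2 changes from -1.18 to 0.37 and a median of -0.55. The exception was Fcgr1, a receptor for IgG, relative to which H2-Aa was higher in AD1KO by 0.37 (0.22 to 0.53), and the change was small relative to C1qb, at -0.21. Among the 6 general leukocyte markers the same held for 5, and relative to Cd52 the change of -0.07 (-0.15 to 0.01) was within counting error. Dendritic cell markers were not set against H2-Aa in this way. Of that list Clec9a, at -2.17 (-2.49 to -1.87), and Xcr1, at -1.89 (-2.46 to -1.38), had log2 ratios below the -1.66 of H2-Aa. The interval of Xcr1 held that value, and all other markers of the list lay above it. The marker Cd79a of B cells gave a log2 change of -0.96 (-1.11 to -0.81) for H2-Aa.

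The H2-O chains did not show this against the B cell marker. H2-Ob stood at 0.140 times the level of Cd79a in fl/fl and at 0.147 times in AD1KO, a log2 change of 0.07 (-0.21 to 0.35), and H2-Oa went from 0.186 to 0.152, a log2 change of -0.29 (-0.72 to 0.14). Both intervals hold 0, and they do not show that the chains and the marker moved alike. Whether these ratios differ between animals of a genotype cannot be read from pooled RNA.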
